A study of Homo sapiens with 5 samples.

Results

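The stretch of chromosome 21q22 between ERG and TMPRSS2 was examined for peaks of ERG and p53 in VCaP, an established human prostate cancer cell line in which these genes are fused and p53 is mutant. Members were all peaks overlapping chromosome 21 from 39700000 to 42930000 (hg19), a stretch of 3.23 Mb with 7 genes followed by name, namely ERG, ETS2, PSMG1, BRWD1, HMGN1, MX1 and TMPRSS2. Of 25939 peaks in 4 lists, 52 were members. Chromatin immunoprecipitation followed by sequencing had been done on untreated cells in medium with serum, with an ERG antibody in 2 samples and with the p53 antibody DO-1 in 2 samples. All samples came from the same line and thus share the fusion and the p53 mutation, and no sample lacked ERG or p53. The ERG lists held 14337 and 11237 peaks in replicates 1 and 2, and the p53 lists held 227 and 138. These p53 lists are far shorter than the p53 peak sets that the study describes, by a filter not given in the sources used here, so that a place without a p53 peak in them is not shown to be unbound. The lists give positions without heights or numbers of reads, so that the number of reads behind a single peak is unknown. The study does give the depth of each library, with somewhat more uniquely mapped reads in ERG replicate 1 than in ERG replicate 2.

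TMPRSS2 encodes a serine protease of the prostate epithelium whose transcription is driven by the androgen receptor. ERG and ETS2 encode transcription factors of the ETS family, which bind DNA at sites with a GGAA core. In many prostate cancers a rearrangement joins the start of TMPRSS2 to ERG, both read from the same strand, so that the androgen-driven promoter controls ERG, and the sequence between them is lost or moved. A peak position does not tell the rearranged copy of the interval from an intact one.

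The promoters of 4 genes are shown first. They were picked for the contrast described below, with an ERG peak at the start (HMGN1 and BRWD1) and without (ERG and PSMG1). Each is a RefSeq window of GRCh38.p14, from 250 bases before to 50 bases after the outermost start of the gene, printed on the minus strand on which all 4 genes are read. The table matched 6 of the 7 genes, and TMPRSS2 was the other. It holds 4 windows for ERG, of which only that at the outermost start was searched. Capitals mark GGAA and its reverse complement TTCC. The positions are chr21:39349039-39349338 for HMGN1, chr21:39313583-39313882 for BRWD1, chr21:38660618-38660917 for ERG and chr21:39183402-39183701 for PSMG1. They are GRCh38 positions and are not comparable with the hg19 positions of the peaks.
HMGN1: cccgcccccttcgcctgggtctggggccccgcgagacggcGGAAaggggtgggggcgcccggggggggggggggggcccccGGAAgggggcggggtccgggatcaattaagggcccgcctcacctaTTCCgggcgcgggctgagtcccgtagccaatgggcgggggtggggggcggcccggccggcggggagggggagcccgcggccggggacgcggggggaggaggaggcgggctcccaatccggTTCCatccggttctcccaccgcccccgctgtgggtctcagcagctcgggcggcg
BRWD1: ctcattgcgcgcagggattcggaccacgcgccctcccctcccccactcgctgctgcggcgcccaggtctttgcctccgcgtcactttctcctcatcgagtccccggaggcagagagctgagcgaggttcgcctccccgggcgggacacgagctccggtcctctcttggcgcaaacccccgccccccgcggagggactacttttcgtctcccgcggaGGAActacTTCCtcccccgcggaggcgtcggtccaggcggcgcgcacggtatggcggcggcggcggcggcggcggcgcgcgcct
ERG: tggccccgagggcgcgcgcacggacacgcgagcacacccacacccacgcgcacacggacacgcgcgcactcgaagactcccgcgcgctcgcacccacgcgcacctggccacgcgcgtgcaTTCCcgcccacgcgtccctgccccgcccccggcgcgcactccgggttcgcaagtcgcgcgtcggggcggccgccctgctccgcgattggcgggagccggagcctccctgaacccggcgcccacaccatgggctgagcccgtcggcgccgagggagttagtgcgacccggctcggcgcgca
PSMG1: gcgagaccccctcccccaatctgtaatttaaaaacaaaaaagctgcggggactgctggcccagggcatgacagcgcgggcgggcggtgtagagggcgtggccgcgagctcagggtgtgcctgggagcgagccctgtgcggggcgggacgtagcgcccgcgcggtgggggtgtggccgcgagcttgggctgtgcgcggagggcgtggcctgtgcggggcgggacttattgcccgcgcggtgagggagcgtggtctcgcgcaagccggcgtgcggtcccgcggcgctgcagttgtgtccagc

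The core, searched on both strands, occurred 4 times in the HMGN1 window, 2 times in the BRWD1 window, 1 time in the ERG window and 0 times in the PSMG1 window. The windows of ETS2 and MX1, which are not printed, held it 4 and 7 times. Of 35116 windows in the whole table, 95.5% held the core, with a median of 3 matches. The longer form CCGGAA or its reverse complement TTCCGG, which contains the core, was found in 17.2% of all windows. Among the 6 genes it was found in HMGN1 alone, with 2 matches. A match is a string of letters and no measured site, and the lack of one holds for this window only. Whether the number of matches goes with ERG peaks was not tested.

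The BRWD1 window also holds an element that the study lists as similar to its binding sequence for mutant p53. The study drew this list from loci that it reports as bound by mutant p53. The element is shown because its hg19 position ties this promoter to the peaks by sequence.
BRWD1 element: CCACGCGCCCTCCCCTCCCCCACTC
This element of 25 bases lies at chr21:40685761-40685785 (hg19, minus strand), and the same letters stand 203 to 227 bases before the start in the RefSeq window. In ERG replicate 1 it lay within a peak at 40685322 to 40686450, and in ERG replicate 2 within a peak at 40685308 to 40686012. Neither of the p53 lists used here had a peak at the element or elsewhere in BRWD1, although the study reports this locus as bound. Binding there below the filter of these short lists was not tested.

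To ask whether ERG occupied this interval more densely than its arm as a whole, peaks per Mb were compared with the rest of 21q. This ran from the first to the last peak of that arm (29.2 Mb outside the interval). ERG peaks occurred in the interval at about the mean density of this uneven arm, whose denser windows near the interval are given below. Long stretches of the interval, described below by gene, were free of ERG peaks. Replicate 1 had 30 peaks in the interval, or 9.29 per Mb (exact 95% Poisson interval 6.27 to 13.3), against 7.85 per Mb (6.87 to 8.94) in the rest of 21q. Replicate 2 had 20 peaks, or 6.19 per Mb (3.78 to 9.56), against 6.79 (5.88 to 7.80). The replicates thus lay on opposite sides of the arm, with ratios of interval to rest of 1.18 (0.780 to 1.74) and 0.912 (0.545 to 1.45).

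Overlapping ERG peaks were merged into regions, and 19 of the 31 regions in the interval had a peak of both replicates. They gave 5.88 regions per Mb (3.54 to 9.19), against 5.76 (4.92 to 6.70) in the rest of 21q. The ratio was 1.02 (exact 95% interval 0.60 to 1.64, counting error only), so that a difference was not detectable with 19 regions, and the interval of the ratio reaches 1.64. In bases under peaks, regions of both replicates covered 3352 bp per Mb of the interval and 2994 bp per Mb of the rest.

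**Figure D1:**
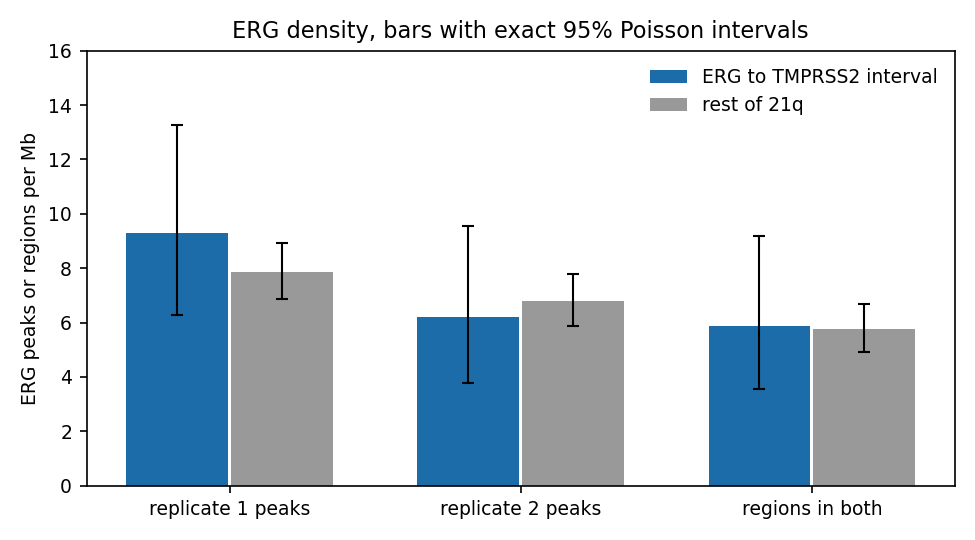
ERG peaks or regions per Mb (y axis) in the interval (blue) and in the rest of 21q (grey), for each replicate and for regions in both (x axis). Bars are densities with exact 95% Poisson intervals, and the intervals of blue and grey bars overlap in all 3 pairs (9.29 against 7.85, 6.19 against 6.79 and 5.88 against 5.76).

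The interval held more ERG regions than most stretches of its length. When all chromosomes were divided end to end into 947 windows of the length of the interval, the median window had 7 ERG regions of both replicates and the middle 50% had 3 to 13. Only whole windows were kept, so the last part of each chromosome, also of 21q, was left out. The interval had 19, more than 85.3% of these windows, while 123 windows had more and the densest had 84. Of the 10 windows of 21q, 7 had fewer than the interval and 3 had more, with a median of 12. The median of 21q thus lay within the middle range of the genome, and 3 dense windows with 27, 31 and 46 regions stood above the other windows of the arm. The end of the arm beyond the last whole window is not among them. The windows were laid without regard to the interval, and 2 of the 10 overlap it, with 15 and 46 regions. Those with 31 and 27 regions come directly before these 2. The other windows of 21q, nearer the centromere, hold 2 to 12 each. The mean of the arm thus joins a sparse part with a denser part near the interval. Windows also differ in gene content and in bases that cannot be mapped, and the part of either was not tested.

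**Figure D2:**
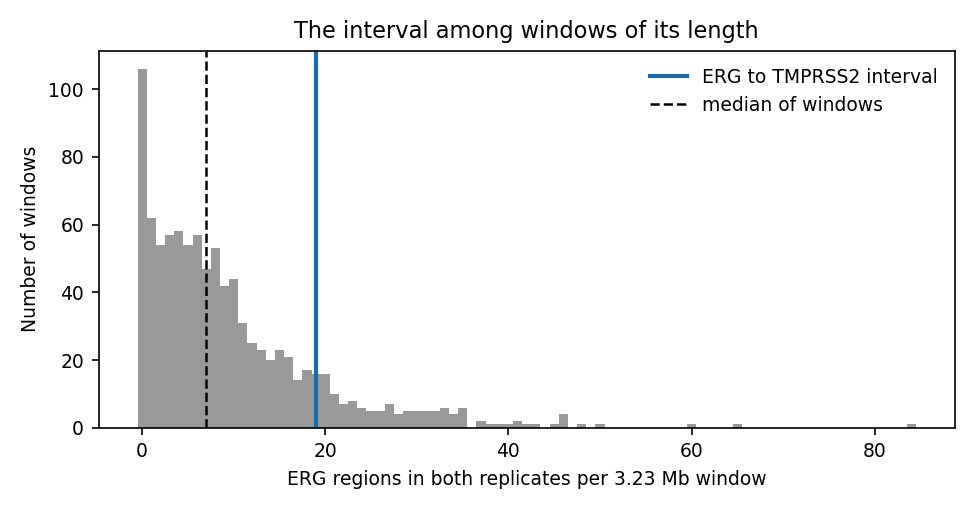
Number of windows (y axis) by the number of ERG regions in both replicates that each holds (x axis), for 947 windows of 3.23 Mb over all chromosomes. The blue line marks the interval at 19 and the dashed line the median window at 7, and the tail of the windows reaches 84.

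A difference from the arm in recurrence between replicates was not detectable with 31 regions. The shares of the single replicates lay on opposite sides of the arm, with overlapping 95% intervals. Of the 31 ERG regions, 61.3% (95% Wilson interval 43.8% to 76.3%) were in both replicates, against 65.9% of the regions in the rest of 21q and 58.2% over all chromosomes. Of the replicate 1 peaks in the interval, 19 of 30 overlapped a replicate 2 peak (63.3%, 45.5% to 78.1%), and in the rest of 21q 73.8% (67.7% to 79.1%) did. Of the replicate 2 peaks, 19 of 20 overlapped a replicate 1 peak (95%, 76.4% to 99.1%), against 86.4% (80.9% to 90.5%). Replicate 2 thus added 1 region that replicate 1 did not have, and replicate 1 added 11. In the 19 regions of both, the midpoints of the replicate peaks lay a median of 59.5 bp apart (12.5 bp to 226 bp), and in the rest of 21q a median of 34 bp.

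ERG regions were described next by gene, in the order of the chromosome. The map of the interval shows the peaks of each list by width, the one size that the lists carry. The widest peaks of both replicates were at HMGN1, and replicate 1 had peaks in ERG and TMPRSS2 that replicate 2 did not.

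**Figure D3:**
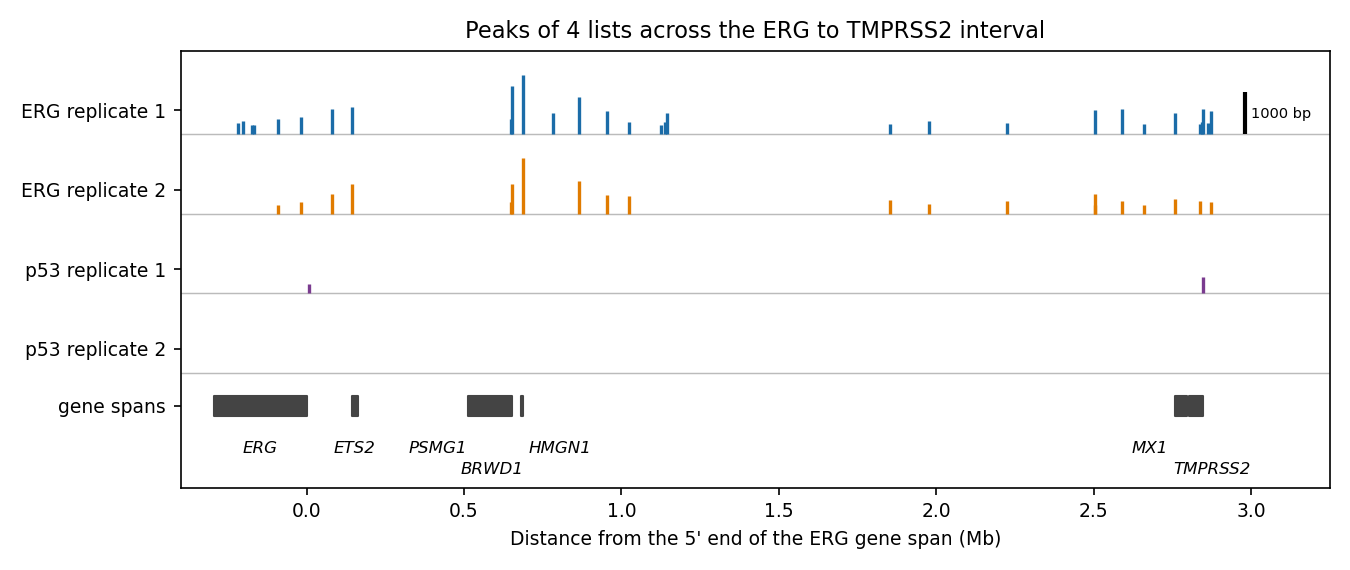
Peaks of the 4 lists by their distance in Mb from the 5′ end of the ERG gene span (x axis), with 1 row per list (y axis) and the gene spans as dark boxes below. The height of a line is the peak width (scale bar at right), and the tallest lines, 1389 bp and 1305 bp, are at HMGN1, and p53 lines appear in replicate 1 only, beside ERG and at TMPRSS2.

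ERG, the gene that the fusion activates, spans 294 kb (39740 kb to 40034 kb). Replicate 1 had 6 peaks within it and replicate 2 had 2. The replicates differed here, and both replicate 2 peaks recurred in replicate 1. The region of both replicates nearer to the 5′ end lay at 40015055 to 40015449, 18.6 kb inside the gene, with peaks of 395 bp in replicate 1 and 283 bp in replicate 2. The other lay at 39942314 to 39942678, 91.3 kb inside, with 365 bp and 208 bp. The latter was a peak of middling width in replicate 1, where 53.5% of peaks were no wider, and a narrow one in replicate 2, where 11.5% were no wider. The 4 regions in replicate 1 alone measured 218 bp to 319 bp and lay between 39815077 and 39866883, 75.6 kb or more from the nearest replicate 2 peak. Neither replicate had a peak within 2 kb of the outermost start of ERG. Starts of shorter ERG transcripts within the gene were not placed on hg19 here.

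ETS2, a transcription factor related to ERG, lies beside it and is read in the opposite direction. It spans 20 kb (40177 kb to 40197 kb) and had 1 ERG region, at 40177400 to 40178236, within 0.400 kb of its 5′ end. The peak measured 638 bp in replicate 1 and 701 bp in replicate 2, and was thus among the widest in both lists, with 89.8% and 96.2% of peaks no wider. Between ERG and ETS2 stood a further region of both replicates at 40115858 to 40116446, of 589 bp and 468 bp, which was 60.6 kb upstream of ETS2.

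PSMG1, which encodes a chaperone for the assembly of the proteasome, was the 1 gene of the 7 with no peak in any list. Its span measures 10 kb (40546 kb to 40556 kb), and the nearest ERG region lay 128 kb from its 5′ end. It stands within the second longest stretch without ERG peaks, 506 kb from 40178236 to 40684331.

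BRWD1 encodes a protein with bromodomains and WD repeats that reads acetylated chromatin. All its ERG peaks were at the 5′ end of its 129 kb span (40557 kb to 40686 kb). A broad region at 40685308 to 40686450 reached the 5′ end, with peaks of 1129 bp in replicate 1 and 705 bp in replicate 2, wider than or as wide as 99.2% and 96.3% of their lists. This is the region that holds the element printed above. A narrower region at 40684331 to 40684709 followed 0.598 kb away, the shortest gap in the interval, with 356 bp and 283 bp.

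HMGN1 encodes a small protein that binds nucleosomes. It spans 8 kb (40714 kb to 40722 kb) and had the widest ERG region of the interval at its 5′ end, at 40720441 to 40721829. The peak measured 1389 bp in replicate 1, rank 30 of 14337, and 1305 bp in replicate 2, rank 16 of 11237. The replicates were alike here, with midpoints 30.0 bp apart.

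MX1 encodes an antiviral GTPase induced by interferon. It spans 40 kb (42792 kb to 42832 kb) and had 1 ERG region, at 42792067 to 42792584 and within 0.067 kb of its 5′ end, with peaks of 502 bp in replicate 1 and 343 bp in replicate 2.

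TMPRSS2, whose promoter drives the fusion gene, spans 45 kb (42836 kb to 42881 kb). Replicate 1 had 3 ERG peaks within it and replicate 2 had 1. The region of both replicates lay at 42872821 to 42873161, 7.84 kb inside the gene, with narrow peaks of 237 bp and 309 bp. The other 2 were in replicate 1 alone. The first, at 42880065 to 42880654, was within 0.346 kb of the 5′ end and measured 590 bp, and the second, at 42878604 to 42878900, measured 297 bp. The 590 bp peak was wide for a peak of a single replicate. Of the 1928 replicate 1 peaks of at least this width, 91.8% overlapped a replicate 2 peak, whereas here the nearest lay 6.94 kb away. Upstream of TMPRSS2, a region of both replicates at 42908030 to 42908584 (555 bp and 273 bp) lay 27.0 kb from its 5′ end. A peak of 253 bp in replicate 1 alone stood between them at 42898132 to 42898384.

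**Figure D4:**
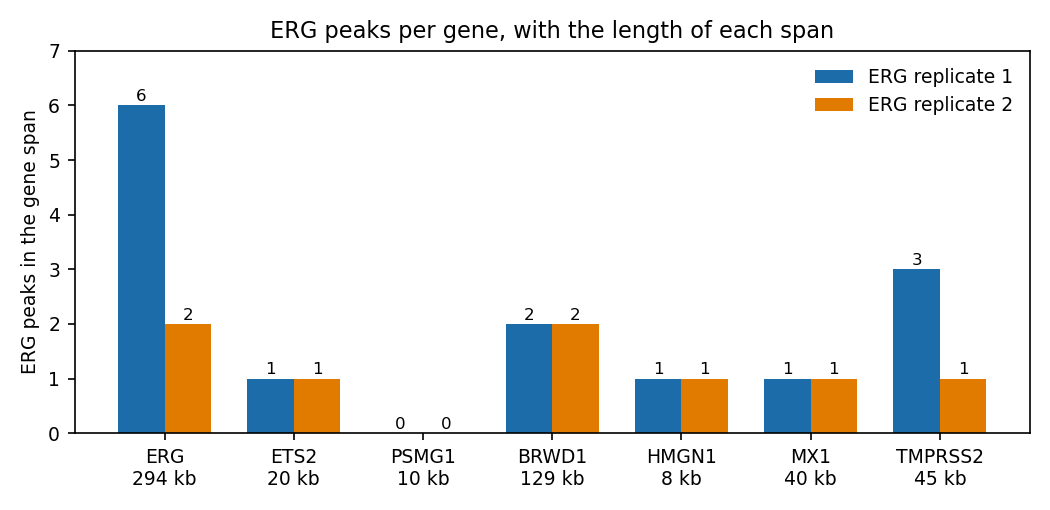
Number of ERG peaks (y axis) in the span of each gene, with the length of the span in kb under its name (x axis). Blue bars are replicate 1 and orange bars replicate 2; the counts are equal at ETS2, BRWD1, HMGN1 and MX1, 6 against 2 at ERG, 3 against 1 at TMPRSS2, and 0 in both at PSMG1.

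Taking the genes as a group, 14 of the 31 regions lay within the 546 kb of the 7 spans, or 2.56 per 100 kb, and 17 lay in the 2684 kb between them, or 0.633 per 100 kb. The shares in both replicates were 57.1% and 64.7%. The stretches between the 7 genes hold other genes that were not placed on hg19. The contrast is thus not one of genes against sequence without genes. ERG regions were within 2 kb of the 5′ end in 5 of the 7 genes, all but ERG and PSMG1, and were in both replicates in 4 of these 5, all but TMPRSS2. The share of all gene starts with an ERG region this near was not computed, as starts of other genes were not placed on hg19, so the count is not set against a background. Per 100 kb of span, HMGN1 had 12.5 regions, TMPRSS2 had 6.67, ETS2 had 5.00, MX1 had 2.50, ERG had 2.04 and BRWD1 had 1.55. With 1 to 6 regions a gene, and each of ETS2, HMGN1 and MX1 holding 1, the counts behind this order are small and the spans range from 8 kb to 294 kb.

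Regions at the starts of the 7 genes had a higher median peak width than the other regions, some of which may be at starts of genes that were not placed on hg19. Over the 6 regions within 2 kb of a 5′ end, the median width was 614 bp (356 bp to 1389 bp) in replicate 1, and over the 24 other regions 302 bp (218 bp to 874 bp). In replicate 2 the medians were 701 bp (283 bp to 1305 bp, 5 regions) and 305 bp (199 bp to 773 bp, 15 regions). The ranges overlapped in both replicates. Over regions of both replicates alone, the medians were 638 bp and 380 bp in replicate 1 and 701 bp and 307 bp in replicate 2. The difference was in the same direction in each replicate, with 2 of the 6 regions at 1 gene, BRWD1, and no test was made over so few. As a whole, peaks in the interval had medians of 360.5 bp and 310.5 bp, and those in the rest of 21q 375 bp and 312.5 bp.

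**Figure D5:**
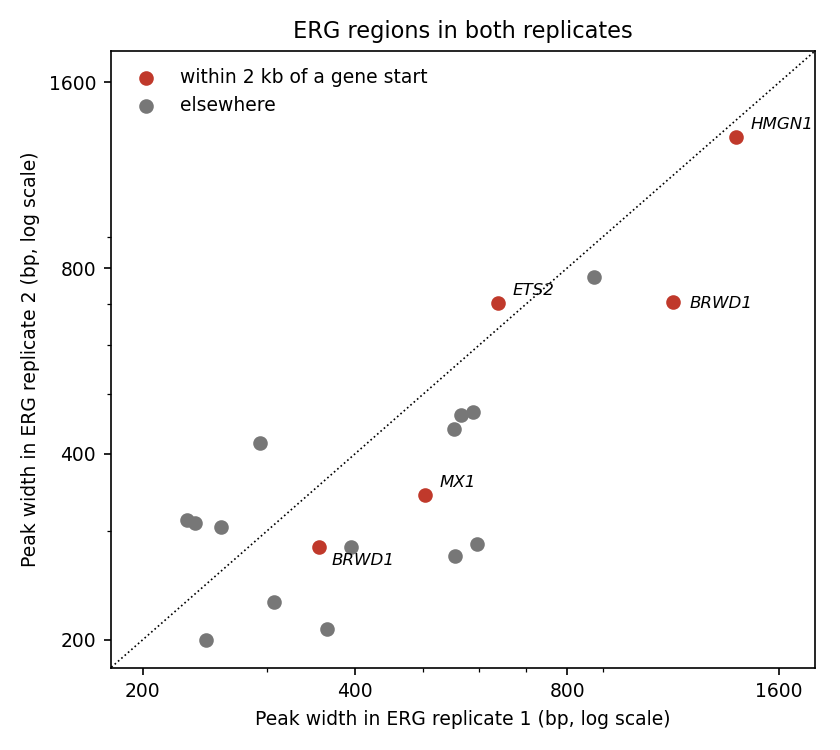
Peak width in bp in ERG replicate 1 (x axis, log scale) and replicate 2 (y axis, log scale) for the 19 regions of both replicates, with equal widths on the dotted line. Red points are within 2 kb of the 5′ end of the named gene and grey points are not; HMGN1 (1389 bp and 1305 bp) stands highest, and the lower BRWD1 point (356 bp and 283 bp) lies among the grey ones.

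Between HMGN1 and MX1 lie 2070 kb with 14 ERG regions, of which 9 were in both replicates. In RefSeq order 11 protein-coding entries stand in this stretch, among them SH3BGR, B3GALT5, DSCAM, a large neuronal cell adhesion gene, BACE2 and MX2. They were not placed on hg19, so no peak is assigned to them. The widest of the 14 regions, at 40899705 to 40900578, had peaks of 874 bp in replicate 1 and 773 bp in replicate 2, the second widest in the interval by its narrower peak. After HMGN1 the regions followed each other at 70.0 kb to 101 kb up to 41160410, where 3 peaks of replicate 1 alone (219 bp, 275 bp and 494 bp) stood within 20 kb. The longest stretch without a peak of either replicate came next, 708 kb from 41179847 to 41888212. Over the whole interval, the median gap between neighbouring regions was 71.8 kb. Just outside the borders, regions of both replicates lay 3.90 kb before the first base (536 bp and 279 bp) and 2.31 kb after the last (438 bp and 403 bp).

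Few peaks of the short p53 lists fell in the interval, and the counts hold for these lists and not for the longer sets that the study describes. Replicate 1 had 2 in the interval and replicate 2 had 0. A count of 0 was given a limit of 3 counts, or 0.929 per Mb, and the upper end of its exact 95% Poisson interval was 1.14 per Mb. In the rest of 21q, replicate 1 had 1 peak and replicate 2 had 3. Of all p53 regions, 11.3% had a peak of both replicates, and of the 2 in the interval 0 did. With so few peaks, no difference in density between the interval and the arm was detectable in either replicate. The ratio was 18.1 (exact 95% interval 0.940 to 1065) in replicate 1, from 2 peaks against 1. In replicate 2 it was 0 (0 to 21.8), in the other direction.

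The 2 p53 peaks of the interval, both in replicate 1, lay upstream of ERG and within TMPRSS2. These genes set the ends of the interval, and the share of it that lies this near to them was not computed. The first, at 40040506 to 40040719, stood 6.51 kb upstream of the 5′ end of ERG. It measured 214 bp, rank 144 of the 227 peaks by width, and the nearest ERG peak lay 25.1 kb away. The second, at 42879787 to 42880173, was at the 5′ end of TMPRSS2, 0.827 kb inside its span. It measured 387 bp, rank 28 of 227, and overlapped the 590 bp ERG peak by 109 bp. This was the 1 ERG region of the 31 that met a p53 peak, where 1.11% of ERG regions did over all chromosomes. Each of these peaks was called in replicate 1 alone, as was the ERG peak, and the nearest p53 peak of replicate 2 was 5.90 Mb from the first and 8.74 Mb from the second.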

How the data were processed

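Peak lists of ERG and p53 ChIP-seq in VCaP cells were used, 2 samples per factor, grouped and numbered by the labels. The fifth sample, input chromatin, was not analysed here. Per the submitters' processing notes, CASAVA 1.4, Bowtie2 2.3.3.1 and MACS2 were used with hg19. The authors called peaks per sample, and the deposited lists have 4 columns, with position and name and no score. The study called p53 peaks at a stricter p-value than ERG peaks, and the filter behind the deposited p53 lists is not given in the sources used here. The positions are not GRCh38, since 304 peaks on 15 of 24 chromosomes end beyond the length of the GRCh38 chromosome, and they were taken as hg19.

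Interval and gene spans (to 1 kb) were preset, and the members and lists were chosen with earlier results of these data known. Genes and regions are named by a fixed rule, namely all 7 genes, every region within 2 kb of a gene start, regions of both replicates within ERG and TMPRSS2, every p53 peak and the 5 widest regions of both replicates. Further regions were named for their place after their values were seen. Strands came from GENCODE, gene order and promoters from RefSeq. Peaks overlapping by at least 1 bp were merged. The arm 21q was taken as chromosome 21 beyond 14 Mb, from first to last peak. Intervals of 95% are exact Poisson, Wilson or, for ratios, exact conditional on the sum, and cover counting error only. Peaks are not replicates, replicates were 2 per factor, and no p-values were computed. The labels do not say whether replicates came from separate cultures. Counting and merging were tested on simulated data. Alternatives comprised overlap rules, wider peaks alone, other backgrounds, flanks and single replicates. The scripts ran under Python 3.11.15 (scipy 1.17.1, numpy 2.4.6), with matplotlib 3.10.9 for the plots.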

Additional observations from a re-analysis of the deposited data

How the results depend on the processing

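Of 31 alternatives, 20 left the value within its counting interval, the spread between replicates or 1.5 times the count reported, and 11 did not. Some of the 20 were fixed in advance. The width ratio of a single replicate always lies within the spread around the mean of both. Leaving out p53 replicate 2, with 0 peaks in the interval, could not change a p53 count there. The density ratio of interval to rest of 21q ranged from 0.912 to 1.18 without either ERG replicate, and was 1.90 against all other chromosomes, by the choice of background. Peaks at least as wide as the median of their list gave a share in both replicates of 42.1% and 4 regions of both replicates in the gene spans, in place of 8. Without ERG replicate 1 or 2, the spans held 8 to 14 peaks, the 14 being those of replicate 1 alone. The ratio of median peak width to the rest of 21q, 0.977 as the mean of the replicates, was 1.06 over peaks of both replicates and 1.02 against the whole genome, and 0.961 to 0.994 in single replicates. Without p53 replicate 1, or in both p53 replicates, the interval had 0 p53 peaks, and without p53 replicate 2 it had 2. The overlap of ERG and p53 ranged from 0 to 1 without single lists, with 0 without ERG replicate 1 or p53 replicate 1, and within 1 kb it was 2.

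No model with a replicate block was fitted, since the counts carry no test. In its place, pairing the lists by replicate number gave 1 overlap of ERG and p53. Heights and scores are absent, so that peak width stood in for a stricter threshold. Where a list has no peak, binding below the threshold is possible. With 31 ERG regions, differences from the arm within the intervals given above were beyond the precision of these lists. Those intervals leave out the uneven spread of regions along the arm, where windows of equal length held 2 to 46. A difference outside them would thus not be settled either. With 2 p53 peaks, large differences were beyond it too.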
